A study of Saccharomyces cerevisiae with 8 samples.

Results

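The small nucleolar RNA (snoRNA) genes of budding yeast were taken as every nuclear gene of biotype snoRNA in the R64 annotation. They numbered 76 of the 6477 genes counted here. By guide class, 47 were box C/D and 29 box H/ACA. By gene arrangement, 51 stood alone, 17 lay in 5 polycistronic units transcribed from a shared promoter, and 8 lay in introns of protein-coding hosts. Every gene had at least 1 tag in the libraries treated with an enzyme.

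Box C/D snoRNAs guide ribose methylation and box H/ACA snoRNAs guide pseudouridylation of ribosomal RNA, and a few, such as U3, U14 and snR30, are needed for cleavage of the rRNA precursor. Most yeast snoRNA genes are transcribed by RNA polymerase II, so the primary transcript begins with a cap. Some snoRNAs keep that start as the mature 5′ end, and there the cap is hypermethylated to trimethylguanosine by Tgs1. Others are cut from a longer precursor, by the RNase III enzyme Rnt1 at a stem closed by an AGNN loop or by splicing and debranching of a host intron, and are then trimmed by the exonucleases Rat1 and Xrn1, which leaves a 5′ monophosphate and no cap.

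The study compared enzymes for removing caps before 5′ ends are ligated and sequenced. All libraries came from strain BY4741, a haploid laboratory strain of mating type a with the alleles his3delta1, leu2delta0, ura3delta0 and met15delta0, grown at 30 °C in rich glucose medium to mid-log phase. RNA of 2 biological replicates was treated with alkaline phosphatase, so that uncapped ends lose their phosphate, and each was divided into 4 aliquots. The aliquots received Tobacco Acid Pyrophosphatase (TAP), Cap-Clip Acid Pyrophosphatase (Cap-Clip), Decapping Pyrophosphohydrolase or no enzyme, giving 2 libraries per group. An oligonucleotide was then ligated to 5′ ends that carried a phosphate, polyadenylated RNA was selected, and the first base after the oligonucleotide was mapped as a tag. Mature snoRNAs carry no poly(A) tail, and the share of tags that came from tailed forms was not tested.

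The 6 enzyme-treated libraries held 1268757 to 10739034 tags, counted on the nuclear chromosomes and the mitochondrial genome together. The no enzyme libraries held 736236 in replicate 1 and 80721 in replicate 2. A count of 0 allows up to 4.07 CPM (tags per 1000000 tags of the library) in no enzyme replicate 1 and 37.2 CPM in replicate 2, for counting error only. The replicates of a treatment agreed less well without enzyme: over snoRNA regions with at least 10 tags in the pair, chi-square per degree of freedom was 1.52 for TAP, 1.39 for Cap-Clip, 2.51 for Decapping Pyrophosphohydrolase and 18.0 for no enzyme. A single tag in no enzyme replicate 2 is worth 12.4 CPM, so that library alone says little about genes under that level. The listed guide classes differed from the annotation for 0 of the 76 genes. A D box stood in the last 15 nt of 45 of the 47 C/D genes, and an ACA stood 3 nt before the end of 14 of the 29 H/ACA genes and of 3 C/D genes.

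The ends around which the results turn are shown as windows of 31 nt of the R64 (sacCer3) reference, read 5′ to 3′ on the gene's strand, with the base before the most frequent start and the first base of the tag in capitals. The first 4 are mature ends that were scarce in no enzyme replicate 1, from H/ACA genes except SNR4 (C/D).
SNR33, chrIII:142531-142561, minus strand: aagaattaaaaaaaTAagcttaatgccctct
SNR5, chrXV:842388-842418, plus strand: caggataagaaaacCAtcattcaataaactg
SNR8, chrXV:832317-832347, plus strand: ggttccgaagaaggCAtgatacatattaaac
SNR4, chrV:424680-424710, plus strand: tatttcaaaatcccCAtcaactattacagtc

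The next set pairs the mature ends of 3 C/D genes, which were abundant in no enzyme replicate 1, with the most frequent start upstream of each. It adds the mature end of the intron-hosted SNR24.
SNR41 mature end, chrXVI:719227-719257, minus strand: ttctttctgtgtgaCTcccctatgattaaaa
SNR41 upstream start, chrXVI:719359-719389, minus strand: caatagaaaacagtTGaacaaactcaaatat
SNR40 mature end, chrXIV:89195-89225, plus strand: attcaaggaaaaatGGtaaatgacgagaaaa
SNR40 upstream start, chrXIV:89057-89087, plus strand: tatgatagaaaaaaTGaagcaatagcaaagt
SNR190 mature end, chrX:139936-139966, minus strand: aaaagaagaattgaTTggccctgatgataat
SNR190 upstream start, chrX:140085-140115, minus strand: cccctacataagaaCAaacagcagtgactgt
SNR24 mature end, chrXIII:500057-500087, minus strand: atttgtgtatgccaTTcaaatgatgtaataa
In the first set each start has a pyrimidine before it and an A as first base. In the second set the 3 upstream starts have a pyrimidine before a purine, and the 4 mature ends do not.

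Most snoRNA tags of every library began at the mature end, taken here as the 11 nt from 5 nt before to 5 nt after the annotated 5′ end. With TAP the mature ends held 82.8% ± 0.155 (SD, n = 2) of snoRNA tags, precursor positions 6 to 200 nt upstream held 13.5% ± 0.152, and positions more than 5 nt inside the gene held 3.69% ± 0.00232. With Cap-Clip the same shares were 83.4% ± 0.586, 12.7% ± 0.646 and 3.95% ± 0.0598 (SD, n = 2). Decapping Pyrophosphohydrolase gave 75.6% ± 0.740, 10.6% ± 1.06 and 13.7% ± 0.324, so its interior share lay above those of TAP and Cap-Clip in both libraries. Without enzyme the mature share was 87.3% ± 9.12, the precursor share 6.39% ± 3.73 and the interior share 6.30% ± 5.39, with a spread that covers the shares of TAP and Cap-Clip for the mature end and the interior.

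The precursor share differed between classes of gene. Single C/D genes had 24.3% of their TAP tags in the precursor window, polycistronic genes, which are C/D as well, 17.8%, and single H/ACA genes 6.80%. The Cap-Clip values were 22.8%, 18.9% and 6.45%, so with both enzymes the C/D genes that stand alone had the highest share. Intron-hosted genes, whose window was ended at the host exon, had 10.1% with TAP and 11.4% with Cap-Clip. Without enzyme the single C/D genes had 19.2% ± 7.56 upstream, and the polycistronic genes had 95.3% of tags at the mature end and 3.11% upstream, a mean of 2 libraries.

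**Figure D1:**
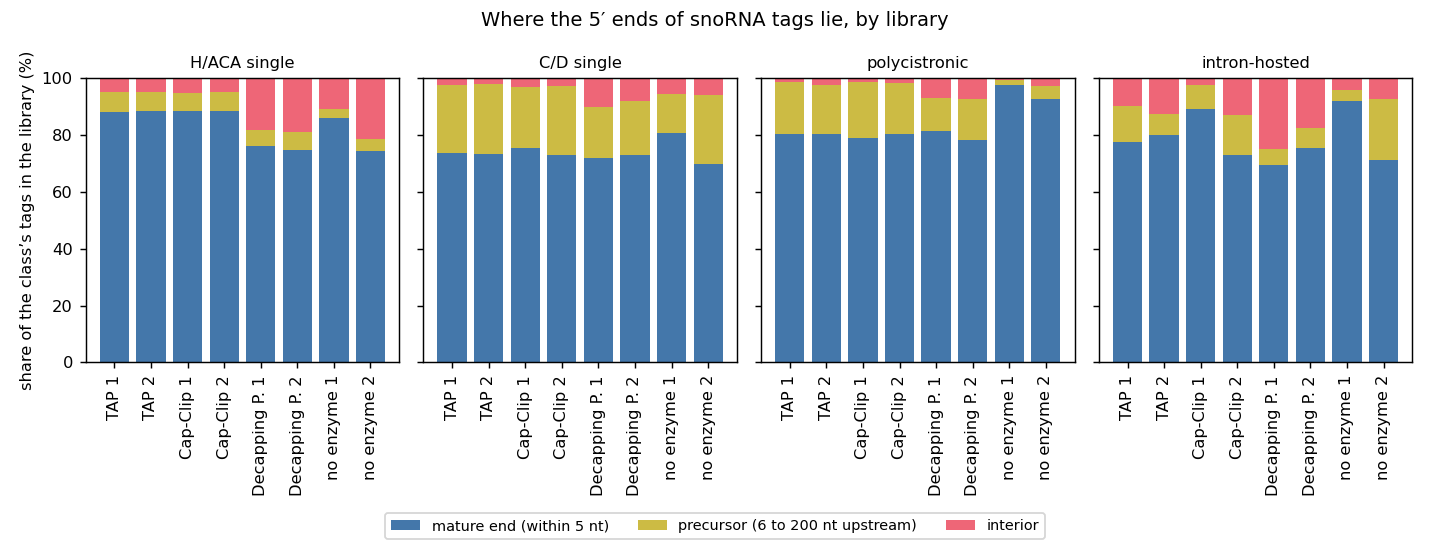
Share of snoRNA tags (%) at the mature end (within 5 nt of the annotated 5′ end), in the precursor window (6 to 200 nt upstream) and in the interior, for each of the 8 libraries (Decapping P. is Decapping Pyrophosphohydrolase) and 4 classes of gene. The interior share of single H/ACA genes stands at 18.5% (mean of 2) with Decapping Pyrophosphohydrolase and at 4.85% with TAP.

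With the 200 nt upstream and the span of the gene counted as separate regions, 30.6% ± 0.474 of snoRNA tags lay upstream with TAP, 29.9% ± 1.02 with Cap-Clip, 30.6% ± 0.611 with Decapping Pyrophosphohydrolase and 36.5% ± 0.406 without enzyme (SD, n = 2). TAP minus no enzyme was -5.93 percentage points, with a two-sided exact permutation p of 0.333, the smallest p that 2 libraries against 2 can give. This direction rests on mature ends that lie 1 to 5 nt before the annotated start. When those 5 nt were counted with the gene, TAP was 7.13 points above no enzyme, again with an exact p of 0.333. The direction also rests on SNR128 and SNR190. With these left out, 29.3% ± 0.0313 lay upstream with TAP and 28.5% ± 0.708 with Cap-Clip (SD, n = 2). Decapping Pyrophosphohydrolase then had 27.8% ± 1.60 and no enzyme 23.6% ± 3.91, the lowest mean.

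Taken gene by gene, the most frequent position over the 6 enzyme-treated libraries was at the mature end for 65 of the 76 genes, upstream for 9 and interior for 2. An upstream start with at least 10 tags was found for 43 genes, at 8 to 188 nt from the annotated end with a median of 132 nt. That distance was 16 nt (median of 17 genes) for single H/ACA genes and 145 nt (median of 17) for single C/D genes, whose shortest was 46 nt. The 7 polycistronic genes with such a start had a median of 150 nt.

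**Figure D2:**
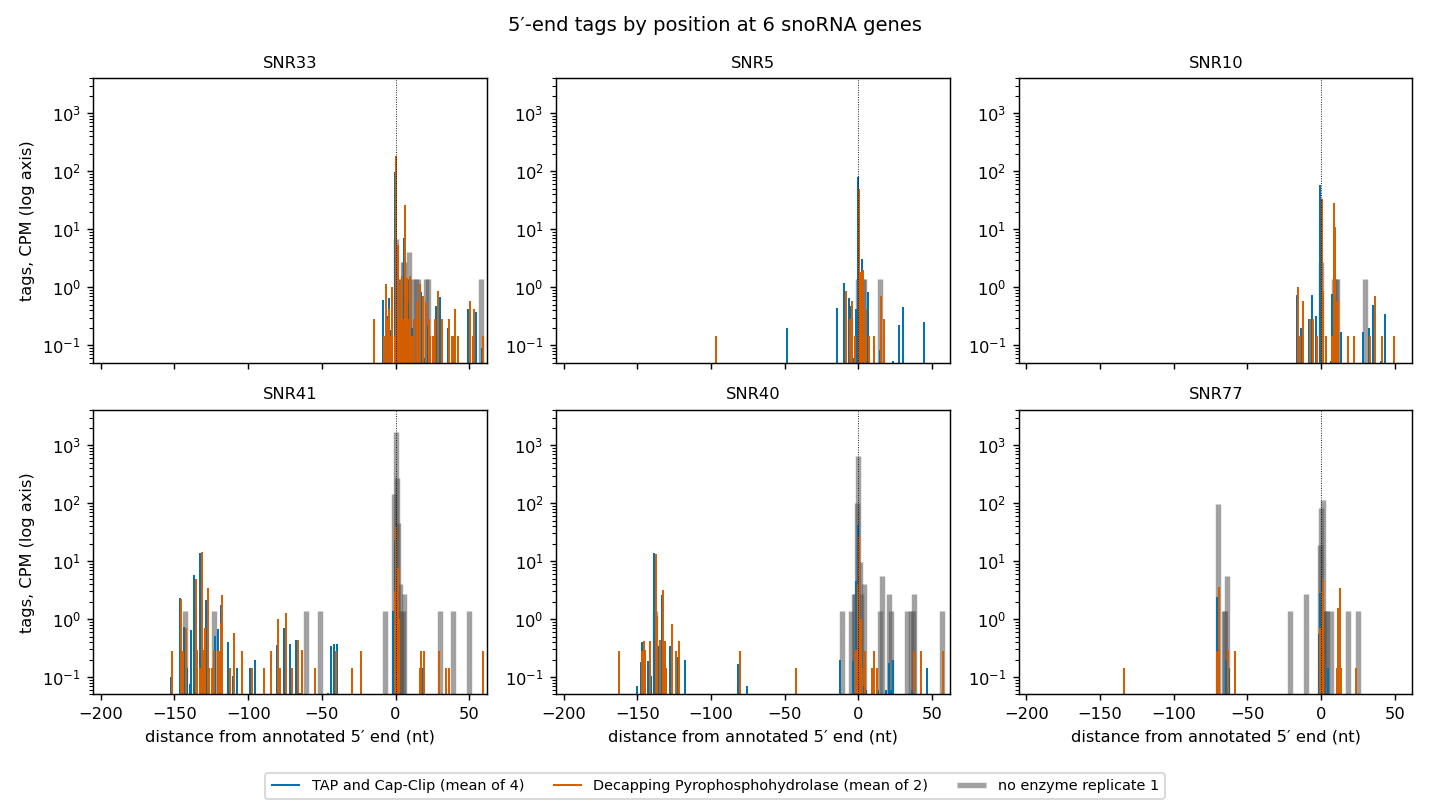
CPM at each position from 200 nt upstream to 60 nt downstream of the annotated 5′ end (distance in nt, log axis of CPM) for SNR33, SNR5, SNR10, SNR41, SNR40 and SNR77, with no enzyme drawn as wide grey bars behind the enzyme groups. The enzyme groups have a start 132 nt upstream of SNR41 and 138 nt upstream of SNR40, and no enzyme has its highest SNR77 precursor position 70 nt upstream.

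Without enzyme the mature ends of snoRNAs fell on both sides of the treated libraries, as coding regions did. With TAP against no enzyme, 96.5% of 4307 coding gene bodies were lower and 72.9% of 4714 coding 5′ regions higher (edgeR). How many of all features lay outside all 6 treated libraries, in either untreated library, was not counted. In no enzyme replicate 1, the mature end of 23 genes was below all 6 enzyme-treated libraries, that of 52 was above all 6, and that of SNR17B (U3) lay within them. The 23 held 19 of the 27 single H/ACA genes and the C/D genes SNR4, SNR13, SNR45 and SNR17A (the other U3 copy). The 52 held all 17 polycistronic genes, all 8 intron-hosted genes, 19 of the 24 single C/D genes and 8 single H/ACA genes, namely SNR36, SNR43, SNR46, SNR80, SNR81, SNR83, SNR84 and SNR85. For the smallest mature ends the count of 0 is no sign of a side: SNR17A had a mean of 1.58 CPM over the 6 enzyme-treated libraries, under the 4.07 CPM that 0 tags allow. Some other placements rest on few tags in replicate 1. SNR189 was below at 2.72 CPM (2 tags), beside a lowest treated value of 2.87. SNR53 (2 tags, 2.72 CPM beside a highest treated value of 1.12) and SNR65 (3 tags) were above.

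The shallow no enzyme replicate 2 could place fewer genes. Of the 23 genes, 17 had a tag there, of which 8 were below all 6 enzyme-treated libraries (SNR3, SNR4, SNR5, SNR8, SNR9, SNR32, SNR34 and SNR42), 7 within them and 2 above. Of the 52, 28 had a tag, of which 22 were above all 6, 5 within them and 1 below (SNR66). For 14 of those 22 every treated library was under 12.4 CPM, so any tag placed them above. For SNR3, SNR8, SNR34 and SNR66 the gap to the lowest treated library was under the 12.4 CPM of 1 tag. The other 6 and 24 genes had no tag in replicate 2, which leaves their side there unknown where the treated level is under 37.2 CPM. Summed over the 23 genes, mature ends had 1091 to 1805 CPM with an enzyme, 105 CPM in no enzyme replicate 1 and 855 CPM in replicate 2. Summed over the 52 genes they had 477 to 952 CPM with an enzyme and 21264 and 1920 CPM without. The sets were chosen by replicate 1 against the 6 treated libraries, so all these sums are a description. Replicate 2 was not part of the choice, but the treated libraries it is set against were. In replicate 2 the sum of the 23 genes lay below the treated range and that of the 52 above it. SNR190 and SNR128 together gave 1041 of the 1920 CPM.

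**Figure D3:**
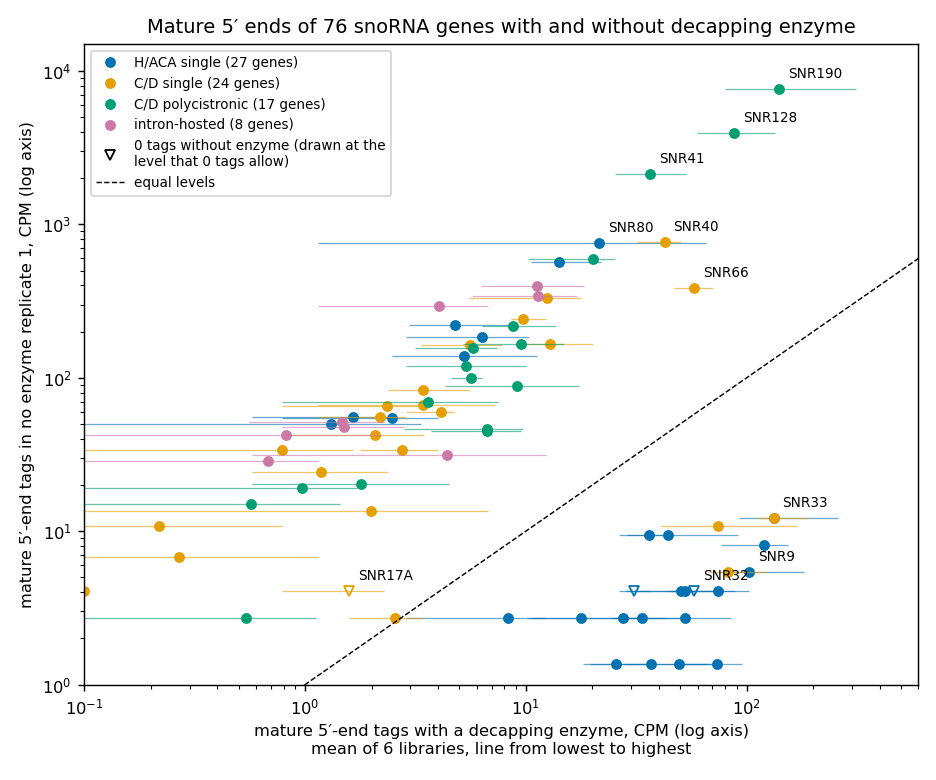
Mature-end CPM of each gene in no enzyme replicate 1 against the mean of the 6 enzyme-treated libraries (log axes, lines from the lowest to the highest of the 6, means under 0.1 drawn at 0.1). Open triangles are genes with 0 tags without enzyme, drawn at 4.07 CPM, the level 0 tags allow, and the single H/ACA genes fall on both sides of the diagonal while polycistronic and intron-hosted genes lie on the no enzyme side.

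Among the genes scarce in no enzyme replicate 1, SNR33, an H/ACA guide, was the most abundant span with an enzyme. Its mature end had 100.5 and 92.2 CPM with TAP, 109.6 and 97.6 with Cap-Clip, 259 and 136 with Decapping Pyrophosphohydrolase, and 12.2 and 99.1 without enzyme. Replicate 1 of no enzyme was low and replicate 2 was within the range of the treated libraries. SNR8, an H/ACA guide for the large subunit rRNA, had 120.3 and 124 CPM with TAP, 154 and 128 with Cap-Clip, 118 and 76.2 with Decapping Pyrophosphohydrolase, and 8.15 and 74.3 without. The span of SNR33 (log2 fold change 0.80, adjusted p 0.26, edgeR) and that of SNR8 (1.30, adjusted p 0.082) missed the threshold of 0.05 for TAP against no enzyme. Both were called higher, at 1.25 and 2.19, without no enzyme replicate 2.

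The H/ACA guide SNR5 was low in both no enzyme libraries. Its mature end had 82.7 and 80.1 CPM with TAP, 86.7 and 88.7 with Cap-Clip, 63.2 and 45.4 with Decapping Pyrophosphohydrolase, and 4.07 and 24.8 without enzyme, so the groups did not overlap. Its span was higher with TAP than without enzyme by 3.19 on the log2 scale (SE 0.70, adjusted p 0.00019, edgeR). SNR42, also an H/ACA guide, had 26.3 to 36.3 CPM at its mature end in the treated libraries and 0 and 12.4 CPM without, and SNR30, which is essential for small subunit rRNA processing, had 28.7 to 44.2 CPM and 9.51 and 0 CPM. The spans of SNR42 (4.50), SNR37 (3.23), SNR3 (3.18), SNR34 (1.87), SNR31 (1.75) and SNR30 (1.39) were called higher with TAP, all of them H/ACA. In no enzyme replicate 2 the span of SNR37 had no tag and that of SNR3 24.8 CPM, below its treated libraries (28.5 to 67.0), while SNR31 and SNR34 had 61.9 CPM each, SNR31 above its treated range (33.3 to 59.5) and SNR34 within its own (48.3 to 74.0). Other abundant ends of this set were those of SNR9 (74.9 to 181 CPM with an enzyme, 5.43 and 49.6 without), SNR86 (50.3 to 95.4, and 1.36 and 61.9), SNR34 (28.2 to 72.9, and 4.07 and 24.8) and the C/D guide SNR13 (40.8 to 168, and 10.9 and 74.3). SNR9 and SNR34 were below every treated library in both untreated libraries, while SNR86 and SNR13 were so in replicate 1 only. For SNR34, as for the span of SNR3, the gap in replicate 2 was smaller than the 12.4 CPM of 1 tag. The log2 values rest on few tags without enzyme and are fitted, not bounds.

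SNR4 and SNR45 are C/D snoRNAs that guide acetylation of the small subunit rRNA. The mature end of SNR4 had 118 and 116 CPM with TAP, 135 and 111 with Cap-Clip, 192 and 125 with Decapping Pyrophosphohydrolase, and 12.2 and 61.9 without enzyme, with all treated libraries above both untreated ones. SNR45 had 73.2 and 67.0 CPM with TAP and 5.43 and 99.1 CPM without, so here the second untreated library was the highest of these 4. The most frequent start of SNR4 is 3 nt before the annotated gene, so its mature tags fell in the upstream region, which was called higher with TAP by 2.59, while its span was called lower at -4.50. The upstream region of SNR45 was called higher by 2.04 and its span lower at -2.72, and without no enzyme replicate 1 the upstream value was -0.30. With the 5 nt before the gene counted in the span, SNR4 (0.78, adjusted p 0.22, edgeR) and SNR45 (1.07, adjusted p 0.15) were not called there.

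Among the genes abundant in no enzyme replicate 1, the polycistronic pair SNR190 and SNR128 gave the most tags. SNR190, a C/D guide for the large subunit rRNA, had 83.5 and 86.4 CPM at its mature end with TAP, 117 and 80.1 with Cap-Clip, 311 and 161 with Decapping Pyrophosphohydrolase, and 7686 and 756 without enzyme. SNR128 (U14), which is essential for small subunit rRNA processing, had 78.8 and 59.5, 72.5 and 75.6, 134 and 106, and 3957 and 285 CPM in the same order. For both, each no enzyme library stood above all 6 treated libraries. The span of SNR190 was lower with TAP by a log2 fold change of -5.66 (SE 1.01, adjusted p 1.1e-05, edgeR) and that of SNR128 by -4.92 (SE 1.05, adjusted p 0.00014).

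The other polycistronic units were also higher at their mature ends in no enzyme replicate 1 when summed over their members. The unit SNR78-SNR77-SNR76-SNR75-SNR74-SNR73-SNR72 had 37.8 to 77.7 CPM with an enzyme and 1153 and 149 without. The unit SNR57-SNR55-SNR61 had 7.76 to 16.8 CPM with an enzyme and 221 and 37.2 without, and SNR67-SNR53 had 5.75 to 15.5 and 169.8 and 24.8 (3 and 2 tags in replicate 2). The unit SNR41-SNR70-SNR51 had 30.7 to 60.4 CPM with an enzyme and 2255 and 37.2 without. In the last unit replicate 2 fell within the treated range, and in the other 3 it lay above it.

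Intron-hosted snoRNAs showed the same order at low levels. SNR44, the H/ACA snoRNA in RPS22B, had a mean of 11.3 ± 4.65 CPM at its mature end over the 6 treated libraries (SD) and 398 and 49.6 CPM without enzyme. SNR18 in EFB1 had 11.4 ± 3.87 against 342 and 24.8, and SNR24 in ASC1 had 4.06 ± 2.03 against 295 and 24.8. The other 5 hosted genes, SNR38, SNR191, SNR39, SNR54 and SNR59, had means of 0.682 to 4.42 CPM with an enzyme and 28.5 to 51.6 CPM in no enzyme replicate 1. In replicate 2, SNR54 had 24.8 CPM and the other 4 had no tag. The upstream regions of SNR24 (-5.99) and SNR44 (-5.02) and the span of SNR18 (-4.33) were called lower with TAP. The gene body of the host EFB1 had 39.4 to 75.3 CPM with an enzyme and 1064 and 297 CPM without.

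Among single genes, SNR40, a C/D guide, had 48.4 and 49.8 CPM at its mature end with TAP, 41.8 and 50.3 with Cap-Clip, 31.9 and 32.8 with Decapping Pyrophosphohydrolase, and 769 and 61.9 without enzyme. Its span was called lower with TAP by a log2 fold change of -3.11 (SE 0.68, adjusted p 0.00019, edgeR). The H/ACA gene SNR80 had 7.36 and 1.14 CPM with TAP, 5.52 and 8.14 with Cap-Clip, 65.4 and 41.4 with Decapping Pyrophosphohydrolase, and 755 and 24.8 without enzyme, the second below both Decapping Pyrophosphohydrolase libraries. Its span was lower with TAP by -6.37 (SE 0.91, adjusted p 3.1e-07). SNR52, the only snoRNA transcribed by RNA polymerase III in yeast, had 9.31 to 20.1 CPM with an enzyme and 166 and 0 without. SNR65 had 1 mature-end tag in the 6 treated libraries and 3 in no enzyme replicate 1.

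The letters at the start divided the genes in the same way, as a description with no test. All 23 genes that were scarce in no enzyme replicate 1 had a pyrimidine before a purine at their most frequent mature start, with A as first base in 19 and G in 4. Of the 52 abundant genes, 11 had that pair, and the first base was T in 28, A in 9, G in 8 and C in 7. Over all mature-end tags the first base was a pyrimidine in 18.2% and 17.9% of tags with TAP, 17.5% and 17.3% with Cap-Clip, 23.0% and 24.7% with Decapping Pyrophosphohydrolase, and 66.9% and 47.8% without enzyme. Both no enzyme libraries thus stood above the other 6. SNR190 and SNR128 held 8572 of the 15734 mature-end tags in no enzyme replicate 1 and 84 of the 224 in replicate 2. These pooled shares without enzyme therefore lean on that pair. Among H/ACA genes alone the shares were 37.4% and 22.1% without enzyme and 2.87% to 6.75% with an enzyme.

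Precursor starts separated the same 2 sets of genes. Of the 52 genes abundant in no enzyme replicate 1, 33 had an upstream start with at least 10 tags in the enzyme-treated libraries. Their median was 139 nt, and 32 of these lay 40 nt or more upstream. Of the 23 scarce genes 10 had one, at a median of 9 nt, and 1 of these lay 40 nt or more upstream. A pyrimidine before a purine was found at 24 of the 33 and at all 10. Some of these starts were also abundant in no enzyme replicate 1, as given below.

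The precursor window of SNR41, a C/D gene that opens its unit, had 31.9 and 31.5 CPM with TAP, 41.8 and 34.2 with Cap-Clip, 38.0 and 38.2 with Decapping Pyrophosphohydrolase, and 6.79 and 0 without enzyme. Its treated libraries had a mean of 35.9 CPM ± 4.06 (SD, n = 6), close to the 36.4 CPM of its mature end. The window of SNR40 had 23.2 and 21.2 CPM with TAP, 20.5 and 18.8 with Cap-Clip, 30.7 and 13.8 with Decapping Pyrophosphohydrolase, and 2.72 and 12.4 without. In both genes every treated library stood above both untreated ones. Counted as the 200 nt upstream, the region of SNR41 (-1.67) and that of SNR40 (-1.71) were called lower with TAP. Once the 5 nt next to the gene were counted with the span they were called higher, at 2.40 (adjusted p 0.0039, edgeR) and 2.55 (adjusted p 0.0099).

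Other genes with abundant precursor windows were SNR43 (17.8 CPM, start 99 nt upstream), SNR50 (15.4 CPM, 144 nt), SNR82 (10.9 CPM, 9 nt), SNR56 (9.90 CPM, 137 nt) and SNR84 (5.60 CPM, 96 nt), as means of the 6 treated libraries. No enzyme replicate 1 had 16.3 CPM for SNR43 and 9.51 for SNR50, and no tag for SNR82 and SNR84. The mature ends of SNR43 and SNR50 were high in the same library, at 184.7 and 33.96 CPM. So SNR43 and SNR50 gave upstream tags in the untreated library as well.

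In 9 genes no enzyme replicate 1 had a precursor position with at least 10 tags. In 7 of them (SNR128, SNR47, SNR66, SNR69, SNR72, SNR77 and SNR85) it was the same base as the most frequent precursor start of the treated libraries, and in SNR48 and SNR64 it was another. For SNR77, inside the 7-gene unit, it lay 70 nt upstream and had 95.1 CPM (70 tags), while the 6 treated libraries had 1.42 to 5.03 CPM at that base. SNR128 had 70.6 CPM at 57 nt, SNR47 57.0 CPM at 75 nt, SNR69 50.3 CPM at 46 nt, SNR66 43.5 CPM at 147 nt, SNR48 36.7 CPM at 114 nt, SNR85 33.96 CPM at 16 nt, SNR64 32.6 CPM at 64 nt and SNR72 14.9 CPM at 69 nt. Replicate 2 had no tag at the position of SNR64, SNR69, SNR72 and SNR85 and 1 to 3 tags at the others. The set holds C/D genes apart from SNR85, which is H/ACA.

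The AGNN stems that Rnt1 is known to cut were then sought in the 200 nt upstream, as an AGNN loop closed by at least 8 pairs, a search chosen after these values were seen. Such a stem was found for 10 of the 76 genes (13.2%), which all belong to the 52, and for 42 of 6001 coding genes (0.700%). The 4 shown, with the loop in capitals, are those of SNR40 and of 3 genes with a precursor position of at least 10 tags in no enzyme replicate 1.
SNR77, chrXIII:297408-297427, plus strand: agaaatacAGTAgtatttct
SNR72, chrXIII:298490-298513, plus strand: aatatatttgAGTTcaaatatatt
SNR66, chrXIV:586023-586046, plus strand: tgaataactcAGATgagttattta
SNR40, chrXIV:89113-89132, plus strand: ctttgataAGTTtatcaaag
The no enzyme start of SNR77 was 17 nt 3′ of its loop, that of SNR72 was 15 nt 5′ of its loop and that of SNR66 was 90 nt from it. A match of letters is not a cleavage site.

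Counted as regions, 93 of the snoRNA spans and upstream regions passed the filter on low counts against no enzyme (56 spans and 37 upstream regions, of 76 each). With TAP 10 were higher and 59 lower than without enzyme (edgeR quasi-likelihood test, adjusted p under 0.05), where 37.9% of all 9184 features tested were higher and 47% lower (84.9% called). Cap-Clip had 16 higher and 59 lower, with 35% and 47.1% of all features (82.1% called). Decapping Pyrophosphohydrolase had 16 higher and 53 lower, with 17.8% and 47.1% (64.8% called). The filter favours regions abundant in 1 group, so these counts describe the regions tested only.

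By class, with TAP the spans of single H/ACA genes were higher in 7 and lower in 7 of 25, with a median log2 fold change of 0.87. Those of single C/D genes were lower in 14 of 15 (median -3.63), of polycistronic genes in 13 of 13 (median -4.17) and of intron-hosted C/D genes in 3 of 3 (median -4.33), with 0 higher in each of these 3 classes by edgeR. All 14 calls in single C/D genes and all 13 in polycistronic genes had an unadjusted p under 0.05, and no further span of these classes did. The background is close to this for one kind of region: 96.5% of all 4307 coding gene bodies were lower (median -3.91), a share like that of the C/D spans, while 72.9% of 4714 coding 5′ regions were higher (median 2.20).

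These counts move with the untreated libraries and the scaling. Shares of all features called were not counted for the alternative settings, here or below, so those counts have no background beside them. Without no enzyme replicate 1, TAP had 0 higher and 11 lower regions, Cap-Clip 0 and 12, and Decapping Pyrophosphohydrolase 0 and 10. Without replicate 2 the counts were 22 and 86, 24 and 86, and 21 and 84, of 123 tested. Scaling by TMM raised the median of all features for TAP from 0.38 to 1.99 and gave 33 higher and 42 lower regions with TAP, 34 and 42 with Cap-Clip and 42 and 27 with Decapping Pyrophosphohydrolase. Under that scaling, spans of single H/ACA genes were higher in 16 and lower in 7, of single C/D genes higher in 1 and lower in 10, and of polycistronic genes lower in 10 with 0 higher (edgeR). DESeq2 gave 35 higher and 28 lower with TAP, 34 and 30 with Cap-Clip and 36 and 15 with Decapping Pyrophosphohydrolase.

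Whether upstream and span moved differently within a gene was tested for the snoRNA genes with both regions measured, 28 against no enzyme and 29 between enzymes. With TAP against no enzyme the upstream change was the higher one in 12 of 28 genes and the span change in 1 (SNR66, difference -2.56), while 98.1% of the 3948 genes tested had their first region higher and 0.0507% their second. Cap-Clip gave 12 and 1 (98% and 0.076%), and Decapping Pyrophosphohydrolase gave 10 and 2, SNR66 and SNR54 (97.8% and 0.076%). The differences on the log2 scale with TAP included 7.10 for SNR4, 4.86 for SNR43, 4.75 for SNR45, 4.51 for SNR50 and 3.56 for SNR41. Those of SNR4 and SNR45 follow from mature ends that lie before the annotated start. Without no enzyme replicate 1 5, 4 and 2 genes were called for TAP, Cap-Clip and Decapping Pyrophosphohydrolase, and without replicate 2 the numbers were 25, 22 and 23.

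TAP and Cap-Clip gave snoRNA regions that were not told apart. Of the 93 regions tested, 0 were higher and 0 lower with Cap-Clip by edgeR, against 0.0114% and 0% of all 8805 features, and DESeq2 also called 0. The lowest adjusted p was 0.40 and 6 spans had an unadjusted p under 0.05. The log2 fold changes ran from -0.77 to 0.68 with a median of 0.05. No gene had a called difference between upstream and span (0% of 3551 genes in either direction), and for these, too, the test was edgeR.

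Decapping Pyrophosphohydrolase gave more snoRNA tags than TAP, at 2978 ± 913 CPM against 2078 ± 89.5 (SD, n = 2), but its replicates differed. Mature ends had 1770 and 1670 CPM with TAP and 2760 and 1753 with Decapping Pyrophosphohydrolase. At mature ends its replicate 2 thus lay between the TAP libraries. Of the 93 regions 47 were higher and 0 lower by edgeR, where 24% of all features were higher and 22.8% lower (46.7% called). The calls included 31 of 54 spans and 16 of 39 upstream regions, and by class 14 of 24 spans of single H/ACA genes, 7 of 15 of single C/D genes, 8 of 13 of polycistronic genes and 2 of 2 of hosted genes. The median log2 fold change over the 93 regions was 0.79, beside 0.56 for gene bodies, of which 37.6% were higher, and -0.38 for 5′ regions of coding genes, of which 12.2% were. Against Cap-Clip 44 were higher and 1 lower (SNR86, -0.44), with 16.9% and 18.4% of all features (35.3% called). In these enzyme comparisons the calls were fewer without TAP replicate 1 (29 higher, 0 lower) and without Cap-Clip replicate 2 (16 higher, 0 lower). Scaled to library totals, they were 31 higher and 6 lower against TAP and 29 and 7 against Cap-Clip.

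**Figure D4:**
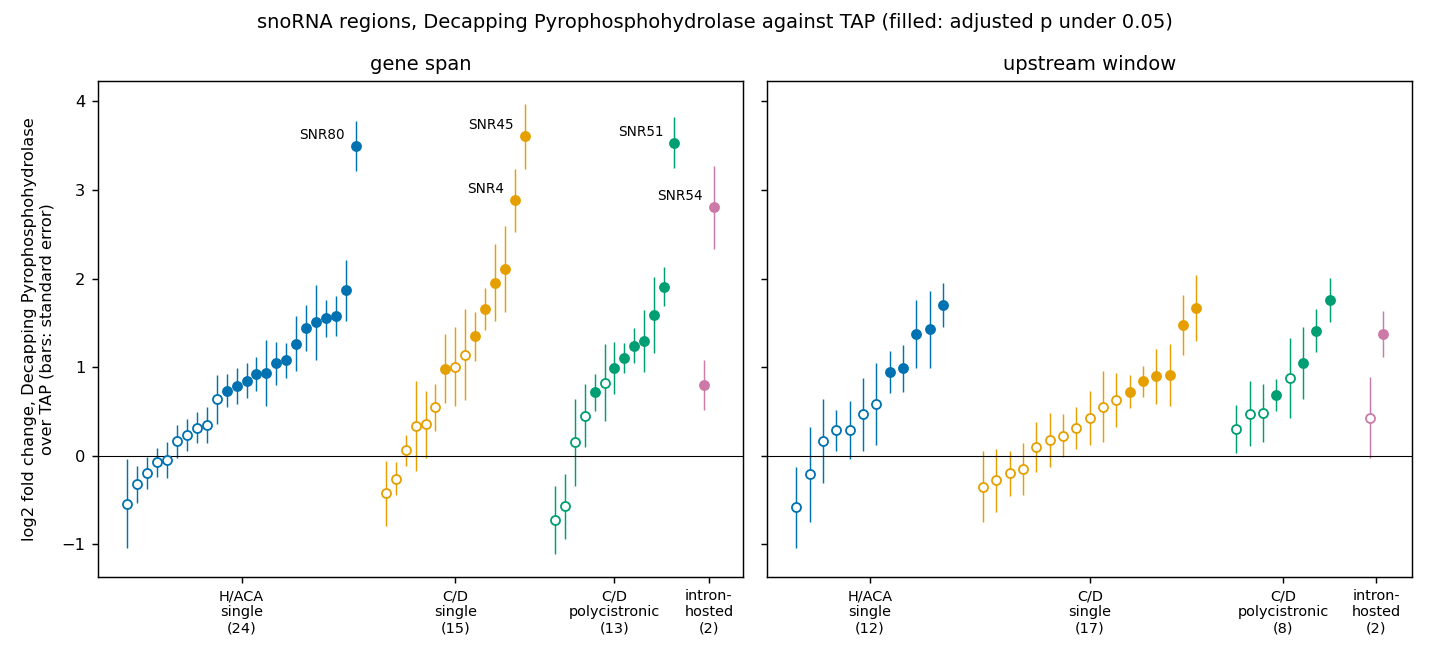
Log2 fold change of Decapping Pyrophosphohydrolase over TAP for each snoRNA span (left) and upstream region (right) tested, ordered by size within gene class, with bars of 1 standard error and filled points where the edgeR adjusted p was under 0.05. The spans of SNR45, SNR51, SNR80, SNR4 and SNR54 stand at 2.80 to 3.61.

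The 5 spans with the highest changes were of several classes. The span of SNR45 had 1.96 and 0.572 CPM with TAP, 3.94 and 2.48 with Cap-Clip, and 19.6 and 13.5 with Decapping Pyrophosphohydrolase, a log2 fold change over TAP of 3.61 (SE 0.37). SNR51, the last gene of the SNR41 unit, had 2.61 and 2.29, 2.36 and 3.42, and 22.9 and 21.6 CPM in the same order (3.53, SE 0.29). In both genes the 2 Decapping Pyrophosphohydrolase libraries lay above the other 4 treated ones. SNR80 rose by 3.49 (SE 0.28), SNR4 by 2.88 (SE 0.35) and SNR54 by 2.80 (SE 0.47). The spans of SNR4 and SNR45 leave out mature tags that start before the annotated gene. Their mature ends had means of 132.7 and 82.0 CPM over the 6 treated libraries. Other spans changed by less, with 1.91 (SE 0.22) for SNR190, 1.66 for SNR13, 1.55 for SNR33, 1.44 for SNR32 and 0.93 for SNR10. The upstream change exceeded the span change in 1 gene, SNR8, and the span change was the higher in 6, SNR56, SNR43, SNR4, SNR48, SNR51 and SNR45, beside 0.986% and 59.8% of all genes. Against Cap-Clip the counts were 0 and 5 by edgeR (0.845% and 41.6%).

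Part of the excess lay a short way inside the genes. Starts 6 to 30 nt downstream of the annotated 5′ end took 1.96% and 1.93% of snoRNA tags with TAP, 2.26% and 1.93% with Cap-Clip, 10.6% and 10.3% with Decapping Pyrophosphohydrolase, and 1.31% and 7.94% (22 tags) without enzyme. Starts further in took 3.41% and 3.19% with Decapping Pyrophosphohydrolase and 1.72% to 1.97% with TAP and Cap-Clip. The first base of the tags at 6 to 30 nt was a pyrimidine in 12.2% and 13.2% with TAP, 17.5% and 20.6% with Cap-Clip, and 56.1% (Wilson 95% interval 52.3% to 59.7%) and 60.3% (56.9% to 63.5%) with Decapping Pyrophosphohydrolase. Without enzyme it was 38.8% and 63.6%.

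**Figure D5:**
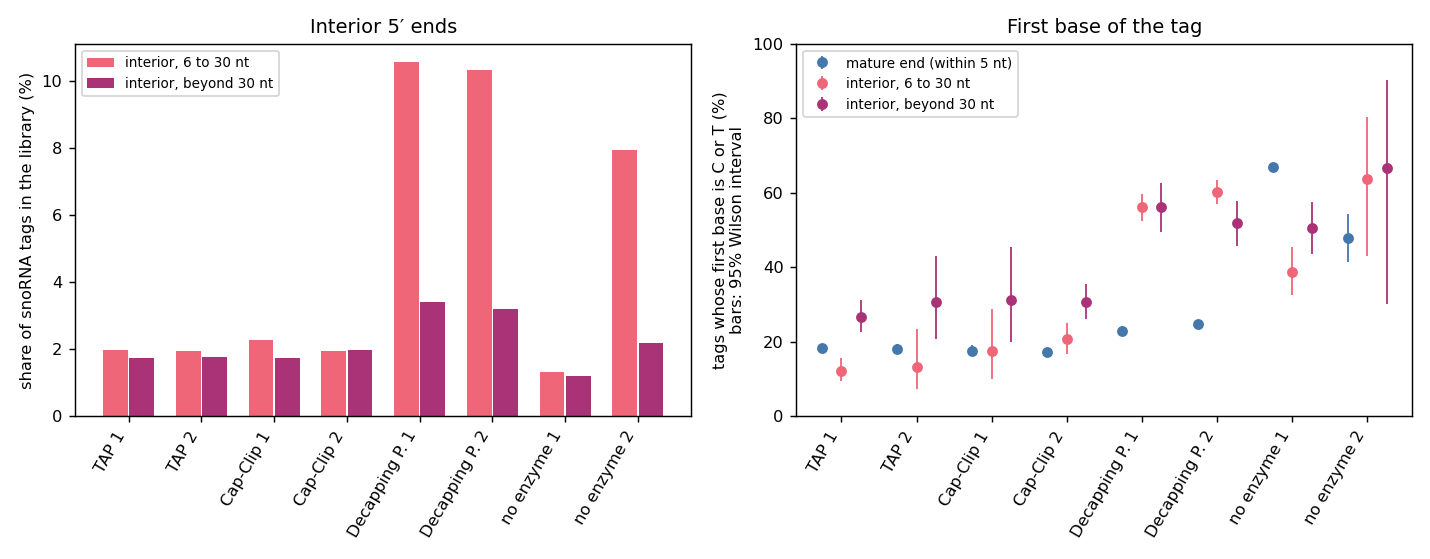
Share of snoRNA tags 6 to 30 nt inside the gene and share of those tags whose first base is a pyrimidine (%), for each of the 8 libraries, with Wilson 95% intervals that cover counting error only. The 2 Decapping Pyrophosphohydrolase libraries have 10.6% and 10.3% of tags there and the 4 TAP and Cap-Clip libraries 1.93% to 2.26%.

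At single bases, 40 interior positions in 21 genes had at least 10 tags with Decapping Pyrophosphohydrolase. A pyrimidine was the first base at 28 of them, T at 26, and 35 lay within 6 to 30 nt. Of the 40, 34 had over 10 times the mean CPM of the 4 TAP and Cap-Clip libraries and 21 had no tag there. The 40 were chosen by their Decapping Pyrophosphohydrolase tags, which favours such an excess, so these numbers are a description. The 4 TAP and Cap-Clip libraries had 24 interior positions with at least 10 tags, in 12 genes, and 0 of the 24 began with a pyrimidine. Those 4 libraries are deeper together, so 10 tags are a lower CPM limit there. The 4 sites shown have the base before the start and the first base in capitals and are positions with at most 9 tags in the TAP and Cap-Clip libraries together.
SNR10, 8 nt inside, chrVII:345979-346009, plus strand: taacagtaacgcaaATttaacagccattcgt
SNR32, 9 nt inside, chrVIII:381534-381564, plus strand: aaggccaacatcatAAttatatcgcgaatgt
SNR51, 11 nt inside, chrXVI:718780-718810, minus strand: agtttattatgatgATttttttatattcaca
SNR13, 7 nt inside, chrIV:1402911-1402941, plus strand: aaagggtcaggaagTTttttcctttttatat

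SNR10, an H/ACA snoRNA that also acts in early rRNA cleavage and whose span overlaps a coding exon on the same strand, had 25.1 and 31.3 CPM at this base with Decapping Pyrophosphohydrolase (45 and 109 tags), 0.279 and 0 with TAP, 2.36 and 0.354 with Cap-Clip, and 0 and 49.6 without enzyme. The last value is 4 tags in the shallow replicate 2 and stands above both Decapping Pyrophosphohydrolase libraries. The site in SNR32 had 19.6 and 6.61 CPM with Decapping Pyrophosphohydrolase (35 and 23 tags), 0 in each TAP and Cap-Clip library, and 1.36 and 12.4 CPM without enzyme, which is 1 tag in each. SNR51 had 10.1 and 9.48 CPM and SNR13 had 9.50 and 4.89, with 0 tags in the other 6 libraries, where 0 tags allow 37.2 CPM in no enzyme replicate 2. These starts were found with Decapping Pyrophosphohydrolase in both replicates and, for SNR10 and SNR32, without enzyme as well. Other starts differed in kind, with a purine after a pyrimidine. At 6 nt inside SNR33 TAP had 7.08 and 6.30 CPM, Cap-Clip 8.67 and 5.90, Decapping Pyrophosphohydrolase 31.3 and 21.0, and no enzyme 2.72 and 0. The start 9 nt inside SNR8 had a mean of 18.4 CPM with Decapping Pyrophosphohydrolase and 0.731 with TAP and Cap-Clip. Without enzyme it had 1.36 and 37.2 CPM. The last value is 3 tags in replicate 2 and stands above both Decapping Pyrophosphohydrolase libraries (26.8 and 10.1). Starts 22 and 26 nt inside SNR11 had the same kind of letters.

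Summed over whole interiors, SNR33 had a mean of 53.5 CPM with Decapping Pyrophosphohydrolase and 14.4 CPM with TAP and Cap-Clip. SNR10 had 43.9 and 2.88 CPM, SNR32 31.1 and 0.684, SNR13 28.6 and 0.929, SNR8 27.2 and 2.90, and SNR34 24.6 and 0.967. The 23 genes scarce in no enzyme replicate 1 had 54.9 to 68.6 CPM in interiors with TAP and Cap-Clip. They had 397 and 242 CPM with Decapping Pyrophosphohydrolase, and 300.2 and 260.2 without enzyme. The 52 others had 18.3 to 23.2, 107 and 71.6, and 254 and 86.7 CPM. In both sets the untreated libraries also stood above TAP and Cap-Clip.

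The promoters of the 56 snoRNA transcription units that are not in introns were searched on both strands over 300 nt, from 250 nt upstream to 50 nt downstream of the annotated start. NCCCTAA, the motif of the factor Tbf1, was found in 14 units (25%), in 10 of 27 H/ACA units (37.0%) and 4 of 29 C/D units (13.8%), and in 6.83% of 6001 coding promoters. TTACCCG, the motif of Reb1, was found in 7 H/ACA units and 1 C/D unit, and in 7.08% of coding promoters. TATAAA was found in 25 of the H/ACA units and 20 of the C/D units, and in 45.2% of coding promoters. Because the annotated start of a trimmed C/D gene lies downstream of its transcription start, the window covers less of the promoter in those genes. The window of SNR5 is shown as an H/ACA example with 2 of the motifs in capitals, NCCCTAA and then TATAAA.
SNR5, chrXV:842153-842452, plus strand: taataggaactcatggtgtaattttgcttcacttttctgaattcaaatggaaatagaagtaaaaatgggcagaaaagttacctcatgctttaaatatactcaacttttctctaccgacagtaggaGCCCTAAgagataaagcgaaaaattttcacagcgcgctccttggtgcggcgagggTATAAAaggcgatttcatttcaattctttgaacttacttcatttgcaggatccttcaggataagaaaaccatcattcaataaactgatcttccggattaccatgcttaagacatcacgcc

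Small nuclear RNAs, which also carry trimethylguanosine caps, were read alongside. SNR19 (U1) had 194 to 230 CPM in the 6 treated libraries and 51.6 and 186 without enzyme. LSR1 (U2) had 281 and 269 CPM with TAP, 242 and 298 with Cap-Clip, 105 and 76.5 with Decapping Pyrophosphohydrolase, and 61.1 and 61.9 without, while SNR7-L (U5) had 13.5 to 20.9 CPM with TAP and Cap-Clip 77.7 and 42.8 with Decapping Pyrophosphohydrolase, and 1.36 and 49.6 (4 tags) without. SNR14 (U4) had 0.572 to 3.15 CPM with TAP and Cap-Clip, 12.9 and 14.1 with Decapping Pyrophosphohydrolase (log2 fold change over TAP 3.52, SE 0.38), and 1.36 and 0 without. So with Decapping Pyrophosphohydrolase U4 and U5 stood above TAP and Cap-Clip and U2 below.

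Of a list of 37 genes for snoRNP proteins and snoRNA processing, 34 had a testable 5′ region. With TAP 26 were higher and 0 lower than without enzyme (edgeR; median 2.47, beside 2.20 for all 4714 coding 5′ regions, of which 72.9% were higher and 1.38% lower). With Decapping Pyrophosphohydrolase 10 of 34 were higher (median 1.41), beside 33.9% of all coding 5′ regions (median 1.45). Between Decapping Pyrophosphohydrolase and TAP 1 was higher and 23 lower (median -0.70, beside -0.38, with 40.9% of all lower), the opposite side from most of the snoRNA regions called.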

How the data were processed

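The deposited file gives, per base and strand, the counts of tags whose 5′ end maps there. The authors aligned 50 nt reads with Novoalign (version not given) to R64 (sacCer3), per the submitters' processing notes. The ligated oligonucleotide carried a random barcode of 8 nt, per the labels' protocols. Whether counts were collapsed by barcode is not given in the sources used here, so intervals cover counting error only.

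Chromosome lengths were checked against the R64 reference, and counts were summed on the gene strand over each span and up to 200 nt upstream, ended at a coding exon or another noncoding gene on that strand. In parallel, coding genes were counted as 5′ regions and bodies. CPM are tags per 1000000 tags of a library, with nuclear and mitochondrial tags both in the total. The edgeR 4.0.16 quasi-likelihood test (R 4.3.3) was fitted to all features passing its filter on low counts. Comparisons against no enzyme used all 8 libraries and library totals without TMM, and comparisons between enzymes used 6 libraries with TMM. P-values were adjusted by Benjamini-Hochberg over all features, and SE are those of the fit. The difference between 2 regions of a gene was tested with edgeR's diffSpliceDGE. DESeq2 1.42.0, other scalings, filters, borders and left-out libraries were alternatives. The fits were tested on simulated counts.

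Aliquots with the same replicate number came from 1 RNA, so numbers pair the libraries by design. Replicate differences correlated at -0.0947 to 0.0902 between groups over 9184 features. Nothing in the labels states how the 2 cultures were separated beyond the word biological.

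The members, lists and tests were chosen with earlier results of these data known. Genes were named as the 10 highest spans and the 10 highest upstream regions, the hosted genes, the first genes of units, U3, SNR30, U14, SNR190 and SNR52, up to 10 called in each direction whose mean CPM reached 20, and genes called for a difference within the gene. Genes named for interior starts, AGNN stems or untreated precursor positions were chosen after their values were seen. The spans of 3 members (SNR10, SNR60 and SNR17A) overlap a coding exon on the same strand and were counted whole, so tags of the overlapping genes cannot be told apart there.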

Additional observations from a re-analysis of the deposited data

How the results depend on the processing

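Depth limits the results against no enzyme, since replicate 2 without enzyme held 80721 tags and its 0 allows 37.2 CPM. Leaving out 1 library in turn, the number of snoRNA regions called ran from 11 to 108 for TAP against no enzyme, 12 to 110 for Cap-Clip, 10 to 105 for Decapping Pyrophosphohydrolase, 29 to 54 for Decapping Pyrophosphohydrolase against TAP and 16 to 48 against Cap-Clip. Between the last pairs DESeq2 called 28 and 20, and a fit of all 8 libraries 30 and 25. Genes whose upstream and span changes differed numbered 5 to 25, 4 to 22, 2 to 23, 5 to 9 and 2 to 9 with 1 library left out. Without a filter on low counts they were 22, 24 and 20 against no enzyme, with 4 libraries in the fit 7 for Cap-Clip, and with the 5 nt border moved and replicate 2 left out (chosen after seeing the data) 26, 25 and 21. Between Decapping Pyrophosphohydrolase and TAP they were 4 with all 8 libraries and 4 with positions of at least 2 tags, and against Cap-Clip 2 with the border moved. Against no enzyme the difference in upstream share turned with SNR128 and SNR190 left out, as given above. The difference in upstream share also turned with the border moved, to 7.13, 6.28 and 4.22 points against no enzyme and -2.07 for Decapping Pyrophosphohydrolase against Cap-Clip, because mature ends 1 to 5 nt before the gene then count with it. It ran from -6.27 to -5.60, -7.36 to -5.92 and -6.42 to -5.55 against no enzyme with 1 library left out, from -1.43 to 0.0120 for Cap-Clip against TAP, from -0.482 to 0.382 for Decapping Pyrophosphohydrolase against TAP (0.168 with positions of at least 2 tags) and from -0.0621 to 1.38 against Cap-Clip. Of 42 named regions 38 kept their direction in every alternative run. The upstream region of SNR41 (TAP against no enzyme) turned to 2.40 with the border moved, 2.22 with replicate 2 also left out, 0.87 by DESeq2, 0.38 with TMM and 10.06 without no enzyme replicate 1, and that of SNR40 to 2.55, 3.04, 0.73, 0.41 and 1.08. The span of SNR66 turned to 0.45, 0.022 and 0.80 by DESeq2, with TMM and without that replicate, and the upstream region of SNR45 to -0.30 without it. Without no enzyme replicate 2 these 4 regions gave -2.16, -2.08, -2.56 and 4.10. The cause of these turns was not tested. The 10.06 of SNR41 rests on 0 upstream tags in no enzyme replicate 2, so it is a fitted value and not a bound. With the replicate block for pairing, 70, 67, 66, 0, 48 and 45 regions were called in the 6 comparisons, no count moved by over 1.5 times and no call changed among the named regions. Of 186 alternative values of counts and shares, 147 kept the direction of the share or stayed within 1.5 times the count.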
